A study of Homo sapiens with 8 samples.

Results

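EIF4E3 and the other genes of the cap-binding translation machinery were followed over 8 Illumina expression arrays. The cells were HCT116, a long-established line from a human colon carcinoma. The genes are EIF4E3, EIF4E, EIF4E2, EIF4EBP1, EIF4EBP2, EIF4G1, EIF4G2, EIF4G3, EIF4A1 and EIF4A2, and the members are all probes annotated to these symbols. That gave 14 of the 24526 probes on the array, covering 9 of the 10 genes, and no probe annotated to EIF4G3. EIF4E3 was chosen by its P2-minus-untreated intensity difference in both genotypes, so its P2 effects are given as a description with no test. The other genes were added as its family and partners.

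The 4 groups of 2 arrays were p53-/- cells given the compound P2 at 25 µM, untreated p53-/- cells, p53+/+ cells given P2 at the same dose, and untreated p53+/+ cells. The p53-/- cells are a derivative of the same line that lacks the tumour suppressor p53. Neither a treatment time nor a solvent control is named in the labels, so an effect of solvent or handling cannot be told apart from that of P2. Nothing in them tells if replicate arrays are different cultures, and the p-values therefore reflect array-to-array scatter that could be purely technical.

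Most messenger RNAs carry a methylated cap at the 5′ end. The cap is bound by eIF4E, which joins the scaffold eIF4G and the RNA helicase eIF4A in the complex eIF4F, and this complex brings the small ribosomal subunit to the message. The 4E-binding proteins compete with eIF4G for eIF4E and are released from it when the kinase mTOR phosphorylates them. EIF4E2 and EIF4E3 encode relatives of eIF4E that also bind the cap. The EIF4E2 product is known mainly as a repressor of translation. The eIF4E3 protein of the mouse binds eIF4G but not the 4E-binding proteins, and it holds the cap without the pair of aromatic residues that eIF4E uses.

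Each array gave between 12775 and 13998 detected probes (detection p under 0.05), and 14574 probes detected on at least 2 arrays were tested. Replicates correlated across these probes with r between 0.989 and 0.995. The array of untreated p53-/- replicate 1 stood apart: 215 tested probes were at least 1 log2 lower there than on replicate 2 and 0 were higher, against 0 to 6 lower and 0 to 4 higher in the other groups. Of 10 colon epithelial markers, 5 were detected on all 8 arrays (among them EPCAM, CDH1 and KRT8), while KRT20, VIL1 and CEACAM6 were detected on none. Of the markers of other cell types, 1 of 6 for fibroblasts, 1 of 5 for leukocytes, 1 of 4 for endothelium and 0 of 2 for erythroid cells were detected on all 8 arrays. Of 7 tested epithelial probes, 5 were called in p53-/- cells, all higher with P2 (71.4%, beside 25.4% of all tested probes called, 11.8% higher). In p53+/+ cells 1 was called, also higher (14.3%, beside 12% called, 5.71% higher). Both KRT18 probes are among the 5, at 1.77 and 1.65 log2, and they were at -1.26 and -2.02 log2 on untreated p53-/- replicate 1 relative to replicate 2. Without that array their differences in p53-/- cells were 1.13 and 0.64 log2. Of the others among the 5, KRT19 went from 0.46 to 0.31 log2 and CDX2 from 0.53 to 0.36. EPCAM went from 0.50 to 0.63. The fibroblast probe tested (COL1A1) and the leukocyte probe tested (LYZ) were lower in p53-/- cells (-0.49 and -0.88 log2), and the part of these markers in any result was not tested.

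The regions around the annotated starts of the cap-binding genes are shown because EIF4E3 alone among the members had a P2 difference above 3 log2. They run from 250 bases before to 50 after the start, written 5′ to 3′ on the gene's strand, from RefSeq on build GRCh38.p14. EIF4E3 is at chr3:71754724-71755023 (minus strand), EIF4E at chr4:98929084-98929383 (minus strand) and EIF4E2 at chr2:232550439-232550738 (plus strand). Capitals mark matches, on either strand, to the E-box CACGTG, the TATA box TATAAA, the CCAAT box CCAAT and the GC box GGGCGG. These motifs do not overlap in the sequences shown.
EIF4E3: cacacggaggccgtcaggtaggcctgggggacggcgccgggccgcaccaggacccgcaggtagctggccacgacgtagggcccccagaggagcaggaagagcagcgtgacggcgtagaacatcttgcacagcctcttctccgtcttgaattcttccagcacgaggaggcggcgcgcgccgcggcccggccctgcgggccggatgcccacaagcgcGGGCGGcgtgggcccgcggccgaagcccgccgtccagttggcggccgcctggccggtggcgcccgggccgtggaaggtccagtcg
EIF4E: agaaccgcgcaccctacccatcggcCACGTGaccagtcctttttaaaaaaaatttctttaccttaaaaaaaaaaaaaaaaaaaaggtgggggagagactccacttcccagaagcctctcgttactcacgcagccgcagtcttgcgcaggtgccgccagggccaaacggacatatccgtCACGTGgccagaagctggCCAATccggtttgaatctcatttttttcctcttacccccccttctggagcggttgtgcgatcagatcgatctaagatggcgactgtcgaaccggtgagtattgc
EIF4E2: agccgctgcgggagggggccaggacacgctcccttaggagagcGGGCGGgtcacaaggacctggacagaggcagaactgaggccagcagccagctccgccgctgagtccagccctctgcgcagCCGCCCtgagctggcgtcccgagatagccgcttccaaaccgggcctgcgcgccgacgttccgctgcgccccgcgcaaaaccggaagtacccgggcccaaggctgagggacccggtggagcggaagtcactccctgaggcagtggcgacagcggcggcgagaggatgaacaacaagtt
The EIF4E3 window was 74% G and C, with 39 CpG dinucleotides, and 88.5% of 35116 human promoters of this length had a lower content. It held 1 GC box and none of the other motifs. The EIF4E window was 50.7% G and C, with 2 E-boxes and 1 CCAAT box, and the EIF4E2 window was 69% G and C, with 2 GC boxes. Over all promoters, 7.26% held the E-box, 11.5% the TATA box, 34.6% the CCAAT box and 45% the GC box. All 300 bases of the EIF4E3 window lie within the span of the neighbouring gene GPR27. RefSeq lists 11 transcripts of EIF4E3, and the window belongs to a single annotated start, so it need not be the start used in these cells.

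EIF4E3 was close to background in untreated cells of both genotypes and well above it in P2-treated cells. Its single probe (ILMN_2225144) read 517.1 and 367.4 intensity units in P2-treated p53-/- cells, against 70.3 and 49.6 in untreated p53-/- cells. It read 303 and 265.2 in P2-treated p53+/+ cells, against 66.4 and 52.1 in untreated p53+/+ cells. The treated arrays of each genotype lay above the untreated ones, with no overlap. The detection p was 0 on the 4 treated arrays and 0.0227 to 0.0453 on the 4 untreated arrays, where the probe was only just above the negative controls.

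After background correction and normalization, EIF4E3 was at 8.52 and 8.56 log2 in P2-treated p53-/- cells and at 5.25 and 4.82 in untreated p53-/- cells. It was at 8.21 and 8.26 log2 in P2-treated p53+/+ cells and at 5.26 and 4.88 in untreated p53+/+ cells. The difference was 3.50 ± 0.17 log2 (SE, n = 2 arrays per group) in p53-/- cells, an 11.3-fold higher level, and 3.17 ± 0.17 log2 in p53+/+ cells, an 8.97-fold higher level. Among the 14574 tested probes these were the 8th and the 6th highest differences. The fold rests on how the background is removed, since the untreated values are near it. It was 6.89-fold in p53-/- and 5.57-fold in p53+/+ cells without background correction, and 6.06-fold and 4.95-fold with a normexp offset of 50.

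**Figure D1:**
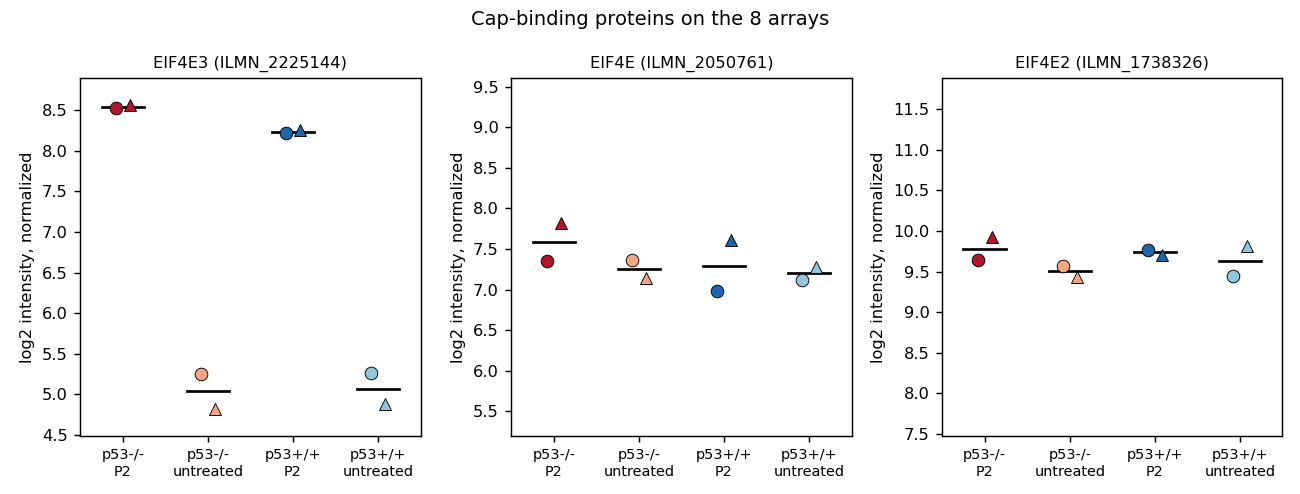
Normalized log2 intensity (vertical axis, 4.4 log2 units in every panel) of the EIF4E3, EIF4E and EIF4E2 probes in the 4 groups (horizontal axis). Circles are replicate 1, triangles replicate 2 and lines the mean of the 2 arrays. EIF4E3 lies at 8.21 to 8.56 on treated arrays and at 4.82 to 5.26 on untreated arrays, while the EIF4E groups overlap.

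The response of EIF4E3 to P2 was also set against genotype. EIF4E3 was chosen for a P2 difference in both genotypes, which favours similar effects, so the test of their difference is not independent of that choice. The p53+/+ effect less the p53-/- effect was -0.34 ± 0.23 log2 (95% interval -0.87 to 0.19, limma adjusted p = 0.522). In treated cells the level was 8.54 ± 0.03 in p53-/- and 8.24 ± 0.03 in p53+/+ cells (log2, SD, n = 2). The p53-/- arrays lay above the p53+/+ arrays, and p53+/+ minus p53-/- was -0.30 ± 0.17 log2 (95% interval -0.68 to 0.070, limma adjusted p = 0.447). In untreated cells the levels were 5.04 ± 0.30 in p53-/- and 5.07 ± 0.27 in p53+/+ cells, with overlapping arrays and a difference of 0.034 ± 0.17 (limma adjusted p = 0.940). In order, the levels thus ran from treated p53-/- through treated p53+/+ to the untreated groups, and neither pair of neighbouring genotypes passed the test.

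The related cap-binding genes did not pass the test under P2. EIF4E (ILMN_2050761), the cap-binding subunit of eIF4F, was at 7.35 and 7.82 log2 in P2-treated p53-/- cells against 7.36 and 7.14 in untreated p53-/- cells. It was at 6.98 and 7.61 log2 in P2-treated p53+/+ cells against 7.12 and 7.28 in untreated p53+/+ cells. The treated and untreated arrays overlapped in both genotypes. The EIF4E difference was 0.33 ± 0.22 log2 in p53-/- cells (95% interval -0.16 to 0.83, limma adjusted p = 0.297) and 0.096 ± 0.22 in p53+/+ cells (95% interval -0.40 to 0.59, limma adjusted p = 0.820).

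EIF4E2 (ILMN_1738326) was at 9.64 and 9.92 log2 in P2-treated p53-/- cells against 9.57 and 9.44 in untreated p53-/- cells, without overlap. It was at 9.77 and 9.71 log2 in P2-treated p53+/+ cells against 9.44 and 9.81 in untreated p53+/+ cells, with overlap. The difference was 0.28 ± 0.15 log2 in p53-/- cells (95% interval -0.057 to 0.62, limma adjusted p = 0.200) and 0.11 ± 0.15 in p53+/+ cells (95% interval -0.22 to 0.45, limma adjusted p = 0.676).

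Among the 4E-binding proteins, which hold eIF4E away from eIF4G, EIF4EBP2 fell in p53-/- cells. EIF4EBP2 (ILMN_1728083) was at 8.60 and 8.53 log2 in P2-treated p53-/- cells against 8.99 and 8.85 in untreated p53-/- cells. It was at 8.56 and 8.55 log2 in P2-treated p53+/+ cells against 8.80 and 8.78 in untreated p53+/+ cells. The treated arrays lay below the untreated ones in both genotypes. The change was -0.35 ± 0.10 log2 in p53-/- cells (1.28-fold lower, 95% interval -0.59 to -0.12, limma adjusted p = 0.0367). In p53+/+ cells it was -0.24 ± 0.10 log2 (95% interval -0.47 to -0.0014), which did not pass (limma adjusted p = 0.176). The effects differed by 0.11 ± 0.15 log2 (adjusted p = 0.758). Of 18 alternative settings, 9 kept the call in p53-/- cells. It was lost with median scaling (adjusted p = 0.0959), with only these groups fitted (0.0935) and without any 1 of 7 arrays, all but untreated p53-/- replicate 2 (adjusted p 0.0552 to 0.182). The change was below 0 in all 18.

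EIF4EBP1 (ILMN_1767324), the best-studied 4E-binding protein gene, was at 7.75 and 7.12 log2 in P2-treated p53-/- cells against 7.33 and 7.05 in untreated p53-/- cells. It was at 7.28 and 7.46 log2 in P2-treated p53+/+ cells against 7.02 and 6.98 in untreated p53+/+ cells. The groups overlapped in p53-/- cells and did not in p53+/+ cells. Its difference was 0.25 ± 0.19 log2 in p53-/- (limma adjusted p = 0.382) and 0.37 ± 0.19 in p53+/+ cells (limma adjusted p = 0.251), neither of which passed.

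The scaffold genes gave different values from different probes. EIF4G1, the main eIF4G, had 4 probes, of which ILMN_1672902 and ILMN_1678244 were detected on none of the 8 arrays (35.5 to 54.5 intensity units) and were not tested. ILMN_1768470 was at 10.81 and 10.43 log2 in P2-treated p53-/- cells against 9.87 and 10.42 in untreated p53-/- cells, and at 10.84 and 10.66 in P2-treated p53+/+ cells against 11.01 and 10.53 in untreated p53+/+ cells. ILMN_2370772 was at 9.80 and 9.47 log2 in P2-treated p53-/- cells against 8.51 and 9.33 in untreated p53-/- cells, and at 9.75 and 9.71 in P2-treated p53+/+ cells against 9.92 and 9.57 in untreated p53+/+ cells. Both were lowest on untreated p53-/- replicate 1, at -0.56 and -0.81 log2 relative to replicate 2.

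For EIF4G1 in p53-/- cells the P2 difference was 0.47 ± 0.22 log2 for ILMN_1768470 (limma adjusted p = 0.143) and 0.71 ± 0.24 for ILMN_2370772 (limma adjusted p = 0.0578). Without untreated p53-/- replicate 1 these values were 0.20 and 0.31 log2 (limma adjusted p = 0.582 and 0.294). In p53+/+ cells the EIF4G1 differences were -0.019 ± 0.22 and -0.012 ± 0.24 log2 (limma adjusted p = 0.968 and 0.984). The EIF4G1 call of ILMN_2370772 in p53-/- cells depended on the setting: 5 of 18 alternatives called it, with adjusted p between 0.00175 and 0.294 over the 18.

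EIF4G2 encodes an eIF4G relative, also called DAP5, that lacks the region that binds eIF4E. Its probes ILMN_1761519 and ILMN_2380946 spanned 0.16 and 0.41 log2 over the 8 arrays. Their P2 differences were 0.10 ± 0.10 and 0.21 ± 0.12 log2 in p53-/- cells, and -0.068 ± 0.10 and 0.067 ± 0.12 in p53+/+ cells, none of which passed (limma adjusted p 0.237 to 0.770). The third EIF4G2 probe, ILMN_2279635, spanned 1.69 log2. It was at 9.27 and 9.93 log2 in P2-treated p53-/- cells against 8.42 and 9.63 in untreated p53-/- cells, with overlap. In p53+/+ cells it was at 10.11 and 10.09 with P2 against 9.78 and 9.31 untreated, without overlap.

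The EIF4G2 probe ILMN_2279635 differed by 0.58 ± 0.35 log2 in p53-/- cells (limma adjusted p = 0.263) and by 0.56 ± 0.35 in p53+/+ cells (limma adjusted p = 0.345). It is 1 of the 215 probes low on untreated p53-/- replicate 1, where it was at -1.21 log2 relative to replicate 2, and 147 tested probes were at least that far below. Without that array the EIF4G2 difference in p53-/- cells was -0.028 log2 (limma adjusted p = 0.954). With only the p53+/+ groups fitted, the difference of 0.56 log2 passed (limma adjusted p = 0.0407).

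**Figure D2:**
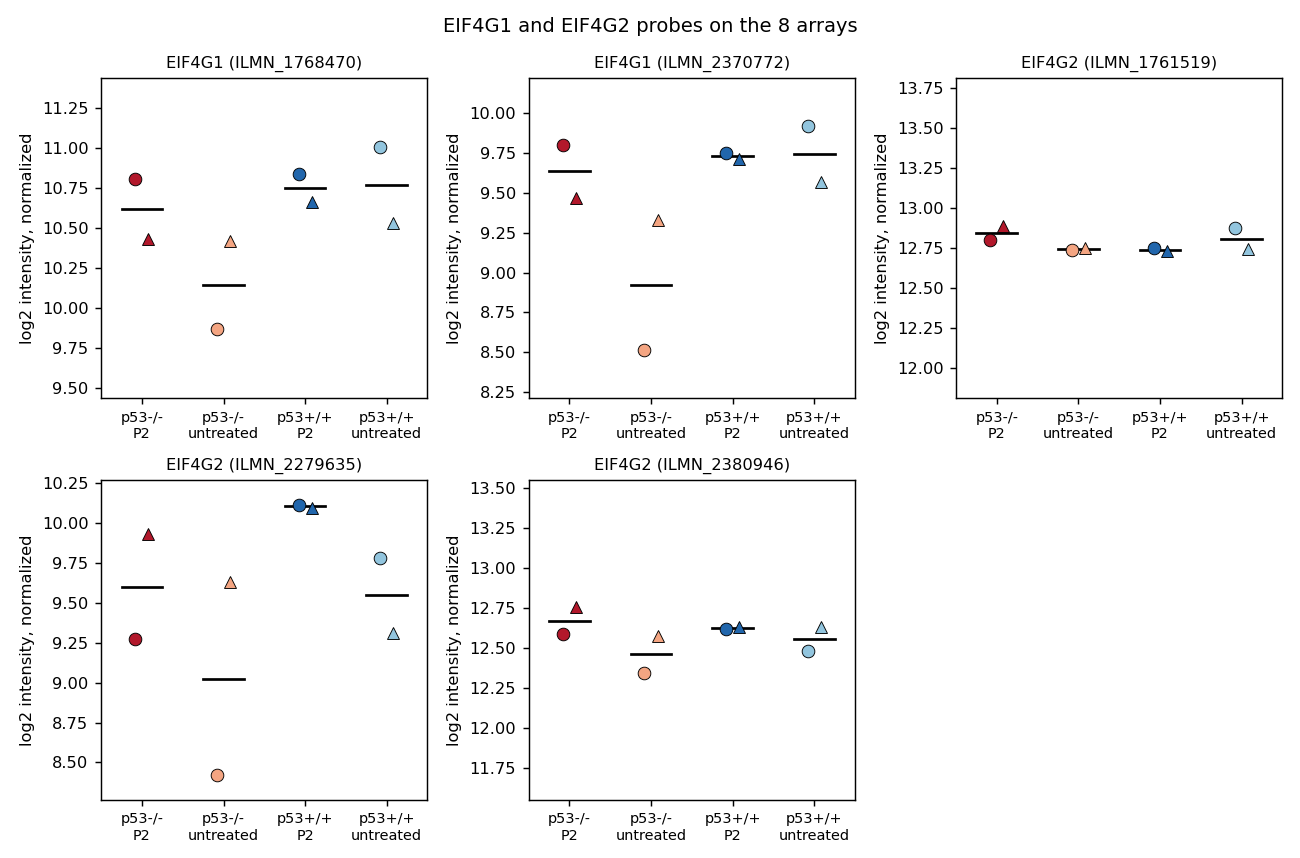
Normalized log2 intensity (vertical axis, 2 log2 units in every panel) of the tested EIF4G1 and EIF4G2 probes in the 4 groups (horizontal axis). Circles are replicate 1, triangles replicate 2 and lines the mean of the 2 arrays. Untreated p53-/- replicate 1 is the lowest array for both EIF4G1 probes and for EIF4G2 ILMN_2279635 (8.42), while EIF4G2 ILMN_1761519 spans 0.16 log2.

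The helicase genes did not pass the test. EIF4A1 (ILMN_1722900), the main helicase of eIF4F, was at 14.30 and 14.04 log2 in P2-treated p53-/- cells against 14.11 and 13.96 in untreated p53-/- cells. It was at 14.08 and 13.94 log2 in P2-treated p53+/+ cells against 14.09 and 14.11 in untreated p53+/+ cells. Its differences were 0.14 ± 0.12 log2 in p53-/- cells and -0.087 ± 0.12 in p53+/+ cells (limma adjusted p = 0.454 and 0.701).

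EIF4A2 (ILMN_1685722), the close relative of EIF4A1, was at 13.14 and 13.05 log2 in P2-treated p53-/- cells against 13.50 and 13.27 in untreated p53-/- cells. It was at 12.94 and 13.03 log2 in P2-treated p53+/+ cells against 13.34 and 13.16 in untreated p53+/+ cells. The treated arrays lay below the untreated ones in both genotypes. The EIF4A2 differences were -0.29 ± 0.12 log2 in p53-/- cells (95% interval -0.56 to -0.0078, limma adjusted p = 0.119) and -0.26 ± 0.12 in p53+/+ cells (95% interval -0.54 to 0.016, limma adjusted p = 0.203), so neither passed over all probes.

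Counted together, 1 (EIF4EBP2) of the 11 tested probes of members other than EIF4E3 was called in p53-/- cells (0 higher, 1 lower), where 25.4% of all tested probes were called (11.8% higher, 13.6% lower). In p53+/+ cells 0 of 11 were called, against 12% of all tested probes (5.71% higher, 6.29% lower). There 1 of the 11 was at an unadjusted limma p under 0.05, beside 4076 of the 14574 tested probes. The arrays did not overlap for 7 of the 11 in p53-/- and for 5 of 11 in p53+/+ cells, where the share over all tested probes was 64.1% and 59.4%. The median difference of the 11 was 0.25 log2 in p53-/- and -0.012 in p53+/+ cells, beside -0.042 and -0.0054 over all tested probes. The set of 11 counts both EIF4G1 probes and the EIF4G2 probe that were low on untreated p53-/- replicate 1.

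**Figure D3:**
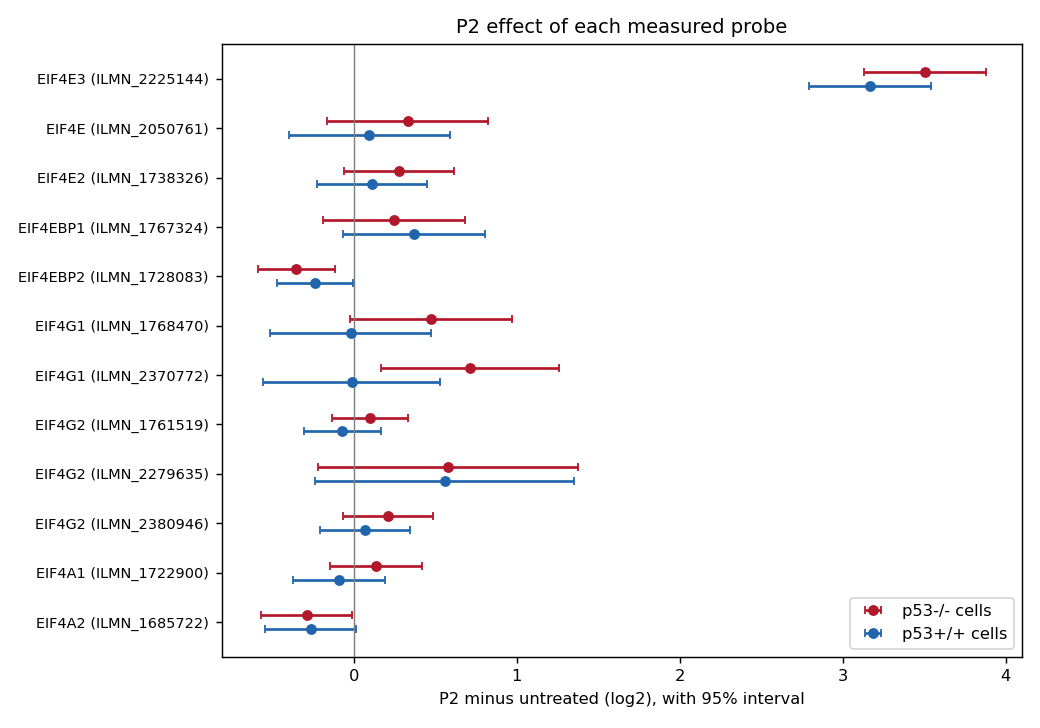
P2 minus untreated (horizontal axis, log2) for the 12 tested probes (vertical axis), in p53-/- cells (red, upper of each pair) and p53+/+ cells (blue, lower). Points are the fitted differences and bars the 95% intervals. EIF4E3 lies at 3.50 and 3.17, and the other probes lie between -0.35 and 0.71. EIF4E3 was chosen by these differences, so its bars are a description and not a test.

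Genotype was compared at each treatment. None of the 12 tested probes was called for the difference between the P2 effects (limma adjusted p 0.334 to 0.992), where 0% of all tested probes were called. An unadjusted limma p under 0.05 was found for 0 of the 12, beside 2383 of the 14574 tested probes. The 12 include EIF4E3, which was chosen by its P2 differences, so its part in these genotype counts is not independent of that choice. Between P2-treated p53-/- and p53+/+ cells 0 of 12 were called (limma adjusted p 0.447 to 0.964, the lowest for EIF4E3), as were 0% of all tested probes. In this comparison 0 of the 12 had an unadjusted limma p under 0.05, beside 2011 of the 14574 tested probes. The arrays of the treated genotypes did not overlap for 4 of the 12, beside 47.8% of all tested probes.

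In untreated cells 0 of the 12 probes were called between genotypes, and 0.0686% of all tested probes were (0.0412% higher and 0.0274% lower in p53+/+). The arrays did not overlap for 4 of the 12, beside 50.2% of all tested probes. An unadjusted limma p under 0.05 was found for 2 of the 12, both of them EIF4G1 probes, beside 2892 of the 14574 tested probes. EIF4G1 averaged 10.14 log2 in p53-/- and 10.77 in p53+/+ untreated cells on ILMN_1768470, and 8.92 and 9.74 on ILMN_2370772. The p53+/+ arrays lay above the p53-/- arrays, and p53+/+ minus p53-/- was 0.62 ± 0.22 and 0.82 ± 0.24 log2 (limma adjusted p = 0.164 and 0.115). Without untreated p53-/- replicate 1 these EIF4G1 differences were 0.35 and 0.41 log2 (limma adjusted p = 0.627 and 0.438). This comparison and the P2 effect in p53-/- cells share the untreated p53-/- arrays.

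Other genes of translation were described from lists by role. Of 27 tested probes of 20 genes of cap-binding partners, 2 were higher and 4 lower in p53-/- cells (22.2% called, beside 25.4% of all tested probes), and 3 were higher and 0 lower in p53+/+ cells (11.1%, beside 12%). The median over the list was -0.023 log2 in p53-/- and 0.043 in p53+/+ cells. CYFIP2 is a relative of the CYFIP1 protein that binds eIF4E. On ILMN_1677200 it rose by 0.47 ± 0.11 log2 in p53-/- (limma adjusted p = 0.0176) and by 1.17 ± 0.11 in p53+/+ cells (limma adjusted p = 0.000340). Its other tested probe, ILMN_2354478, was at 0.36 ± 0.12 log2 in p53-/- cells and did not pass (limma adjusted p = 0.0557). In p53+/+ cells that CYFIP2 probe rose by 0.44 ± 0.12 (limma adjusted p = 0.0462), called in 10 of 18 alternatives. NCBP2, the small subunit of the nuclear cap-binding complex, rose by 0.67 ± 0.13 log2 in p53+/+ cells on ILMN_2297161 (limma adjusted p = 0.0113), while its other probes were at -0.10 and 0.42 and did not pass. In p53-/- cells the helicase cofactor gene EIF4H fell by 0.48, the shuttling protein gene EIF4ENIF1 fell by 0.42, and the probes of CYFIP1 went both ways, at -0.48 and 0.38 log2. Without untreated p53-/- replicate 1, which leaves 1 untreated array, the p53-/- calls of EIF4H, EIF4ENIF1 and both CYFIP1 probes were lost. EIF4H was then at -0.37, EIF4ENIF1 at -0.43 and the CYFIP1 probes at -0.40 and 0.31 log2. In p53+/+ cells the same array left out gave 5 higher and 1 lower, and median scaling gave 1 higher and 0 lower, with the NCBP2 call lost (limma adjusted p = 0.0836).

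Genes of mTOR and MNK signalling, which act on the 4E-binding proteins and on eIF4E, had 5 of 24 tested probes higher and 1 lower in p53-/- cells (25% called, beside 25.4%). The list's median was 0.044 log2 in p53-/- and 0.16 in p53+/+ cells. With median scaling 2 were higher and 0 lower in p53+/+ cells. In that setting fewer of all tested probes were called in p53+/+ cells than in the main one. The 12% is therefore not the share to set beside this count or the median-scaling count of the cap-binding partners. In the main setting 5 were higher and 0 lower in p53+/+ cells (20.8%, beside 12%). That count ran from 1 to 6 when single arrays were left out, and it was 1 without untreated p53+/+ replicate 1. DDIT4, which restrains mTOR under stress, rose by 1.33 ± 0.12 log2 in p53-/- (limma adjusted p = 0.000200) and by 1.36 ± 0.12 in p53+/+ cells (limma adjusted p = 0.000214). DEPTOR, a subunit that inhibits mTOR, rose by 0.94 ± 0.22 and 0.87 ± 0.22 log2 (limma adjusted p = 0.0157 and 0.0356), and SESN1, which signals amino acid shortage to mTOR, by 0.49 ± 0.12 and 0.59 ± 0.12 (limma adjusted p = 0.0187 and 0.0154). The DDIT4 calls held in all 18 alternatives in each genotype. DEPTOR was called in 14 of 17 alternatives in p53-/- cells and in 10 of 17 in p53+/+ cells, and without untreated p53-/- replicate 2 its change in p53-/- cells was 0.52 log2 (limma adjusted p = 0.0208). SESN1 was called in 13 of 18 alternatives in p53-/- and in 14 of 18 in p53+/+ cells.

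Some calls of this group sat on probes that were low on untreated p53-/- replicate 1. The mTOR substrate gene AKT1S1 rose by 1.32 ± 0.24 log2 in p53-/- cells, with a gap of -0.81 log2 between the untreated replicates, and was at 0.92 without replicate 1 (limma adjusted p = 0.00955). MKNK2, a kinase of eIF4E, rose by 1.45 ± 0.41 log2 in p53-/- cells on ILMN_1654060, with a gap of -1.45 log2, and its call was lost without replicate 1 (0.73 log2, limma adjusted p = 0.101). The other MKNK2 probe, ILMN_2347068, was at 0.031 log2 in p53-/- cells (limma adjusted p = 0.866) and rose by 0.60 ± 0.11 in p53+/+ cells (limma adjusted p = 0.0105).

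The eIF2 subunits, exchange factors and kinases were listed together with EIF2A, EIF2D, PPP1R15A and PPP1R15B. Of the 16 tested probes of this list, 1 was higher and 3 lower in p53-/- cells (25% called, beside 25.4%). In p53+/+ cells 0 were higher and 1 lower (6.25%, beside 12%). The median over the list was -0.042 log2 in p53-/- and 0.060 in p53+/+ cells. EIF2S2, the beta subunit of the factor that brings the initiator tRNA, fell by 0.96 ± 0.11 log2 in p53-/- (limma adjusted p = 0.000588) and fell by 0.90 ± 0.11 in p53+/+ cells (limma adjusted p = 0.00110), calls that held in all 18 alternatives. EIF2AK4, the kinase GCN2 that senses uncharged tRNA, rose by 0.74 ± 0.14 log2 in p53-/- cells (limma adjusted p = 0.00510) and was at 0.38 ± 0.14 in p53+/+ cells (limma adjusted p = 0.103). EIF2B2 and PPP1R15A each fell by 0.37 log2 in p53-/- cells (limma adjusted p = 0.0381 and 0.0285). Both calls were lost without untreated p53-/- replicate 1, where the changes were -0.44 and -0.34 log2 with 1 untreated array left.

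Of 15 tested probes for the 13 subunits of eIF3, 1 was higher and 2 lower in p53-/- cells (20%, beside 25.4%), and 1 was higher and 0 lower in p53+/+ cells (6.67%, beside 12%). The median over the list was -0.059 log2 in p53-/- and 0.0023 in p53+/+ cells. The subunit gene EIF3G rose by 0.86 ± 0.13 log2 in p53-/- (limma adjusted p = 0.00196) and by 1.06 ± 0.13 in p53+/+ cells (limma adjusted p = 0.00108), also in all 18 alternatives. EIF3C fell by 0.46 log2 in p53-/- cells, on a probe that may also read the near-identical EIF3CL, and EIF3B fell by 0.41 on 1 of its 3 probes. Both calls were lost without untreated p53-/- replicate 1, where the changes were -0.34 and -0.43 log2 with 1 untreated array left. The other 10 subunits had no called probe in either genotype.

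Of 13 tested probes of scanning and subunit joining factors, 1 was higher and 1 lower in p53-/- cells (15.4%, beside 25.4%). The higher was EIF5 ILMN_1815733 (0.75 log2, with the other tested EIF5 probe at 0.025) and the lower EIF6 (-0.38 log2). In p53+/+ cells 0 were called by limma (beside 12%). There 0 of the 13 had an unadjusted limma p under 0.05, beside 4076 of the 14574 tested probes. Neither EIF5 nor EIF6 was called without untreated p53-/- replicate 1, where their changes were 0.65 and -0.32 log2 with 1 untreated array left. The scanning and joining list also counted EIF5A and EIF5A2, and the list of elongation and termination factors also counted EIF4A3. This last list had 0 of 13 tested probes called in either genotype, beside 25.4% of all tested probes in p53-/- and 12% in p53+/+ cells. An unadjusted limma p under 0.05 was found for 5686 of the 14574 tested probes in p53-/- and 4076 in p53+/+ cells. In each genotype 1 of the 13 in this list had such a p. The differences ran from -0.29 to 0.46 log2 in p53-/- and from -0.29 to 0.35 in p53+/+ cells.

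Messages known to depend strongly on eIF4E for export or translation were measured here only as RNA. In p53-/- cells 1 of 19 tested probes was higher and 5 lower (31.6%, beside 25.4%), and in p53+/+ cells 0 were higher and 1 lower (5.26%, beside 12%). BIRC5, the apoptosis inhibitor survivin, fell by 0.76 and 0.42 log2 on its probes ILMN_2349459 and ILMN_1803124 in p53-/- cells, and ILMN_1803124 fell by 0.69 ± 0.12 in p53+/+ cells (limma adjusted p = 0.00853). NBN, a DNA break repair gene, fell by 0.72 ± 0.16 log2 in p53-/- cells (limma adjusted p = 0.0140), and CCNE1, cyclin E, fell by 0.45 ± 0.13 (limma adjusted p = 0.0300). The probes of BCL2L1, which encodes an apoptosis inhibitor, went opposite ways in p53-/- cells: ILMN_1654118 fell by 0.39, and ILMN_1742410, which was at -2.88 log2 on untreated replicate 1 relative to replicate 2, rose by 2.51. The median of the 19 was -0.19 log2 in p53-/- and -0.058 in p53+/+ cells, beside -0.042 and -0.0054 over all tested probes. Without untreated p53-/- replicate 1, which leaves 1 untreated array, the p53-/- calls of NBN, CCNE1, BIRC5 ILMN_1803124 and BCL2L1 ILMN_1654118 were lost. Their changes were then -0.49, -0.37, -0.37 and -0.36 log2 in that order, and BCL2L1 ILMN_1742410 was at 1.07.

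**Figure D4:**
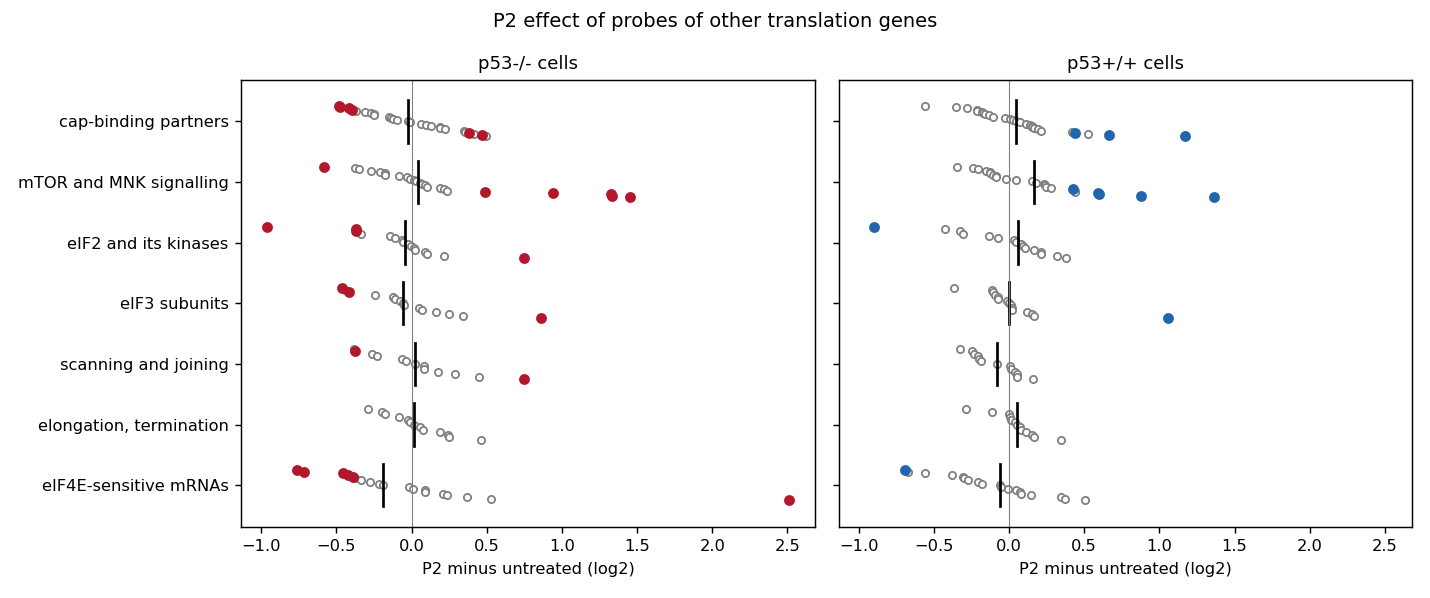
P2 minus untreated (horizontal axis, log2) of each tested probe of 7 translation lists (vertical axis), in p53-/- cells (left) and p53+/+ cells (right). Filled points passed an adjusted p under 0.05, open points did not, and black lines are list medians. The highest point on the left is the BCL2L1 probe at 2.51, and DDIT4 lies at 1.33 and 1.36.

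Some of the genes near EIF4E3 on chromosome 3 were also read. In the order of RefSeq protein-coding genes, FOXP1, MDFIC2, MITF and FRMD4B follow on one side. GPR27, PROK2, RYBP and SHQ1 follow on the other. MDFIC2, MITF and FRMD4B were not read, so the sides are covered unequally. FOXP1, a forkhead transcription factor gene, changed by -0.037 ± 0.14 log2 in p53-/- and 0.0047 ± 0.14 in p53+/+ cells on the 1 of its 3 probes that was tested, which was detected on 2 arrays. GPR27, the receptor gene whose span covers the printed EIF4E3 window, was at -0.19 ± 0.17 and -0.023 ± 0.17 log2 (limma adjusted p = 0.447 and 0.949). PROK2 was at -0.067 and 0.13 log2 and SHQ1 at -0.17 and -0.21, and none of these passed.

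RYBP, a Polycomb-associated protein gene, rose by 1.01 ± 0.24 log2 in p53-/- cells (limma adjusted p = 0.0166), at 9.29 and 9.01 with P2 against 8.21 and 8.06 untreated. In p53+/+ cells RYBP was at 8.93 and 8.13 with P2 against 8.78 and 8.35 untreated, a difference of -0.031 ± 0.24 (limma adjusted p = 0.954). The difference between these RYBP effects did not pass (-1.04 ± 0.35 log2, limma adjusted p = 0.196). So 1 of the 5 tested probes of the neighbours read was called in p53-/- cells, beside 25.4% of all tested probes. In p53+/+ cells 0 were called, beside 12%. The RYBP call was lost without P2-treated p53-/- replicate 1.

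The genes whose values ran most like those of EIF4E3 were found by Pearson's r over the 8 arrays, among 1633 other tested probes of 1494 genes with a range of at least 1 log2. These values are a description, since all genes share the arrays and the split by treatment, and 116 of the 1633 probes had r of at least 0.95. The highest were CNTNAP2 (0.997), DIAPH2, PLCL2, SYK and PROM1 (0.996 each), which were each detected on 4 of the 8 arrays. CNTNAP2, a neurexin family gene, was 1.85 log2 higher with P2 in p53-/- and 1.68 higher in p53+/+ cells, and SYK, a tyrosine kinase gene, was 2.09 and 2.04 higher. The lowest r were those of SLC2A3 (-0.996), TM4SF18 and ZBED2 (-0.994 each), GZMB (-0.993) and NEBL (-0.992). GZMB, which encodes a granzyme of cytotoxic lymphocytes, differed with P2 by -1.89 log2 in p53-/- and -1.85 in p53+/+ cells and was detected on 4 of 8 arrays, while NEBL, an actin-binding protein gene, differed by -1.04 and -0.84. Among the other members, only both tested EIF4G1 probes and EIF4G2 ILMN_2279635 had a range of at least 1 log2. Their r was 0.33, 0.40 and 0.49, and they were not among these 10 genes. The remaining member probes were left out by the range, with r from -0.90 (EIF4EBP2) to 0.64 (EIF4EBP1).

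**Figure D5:**
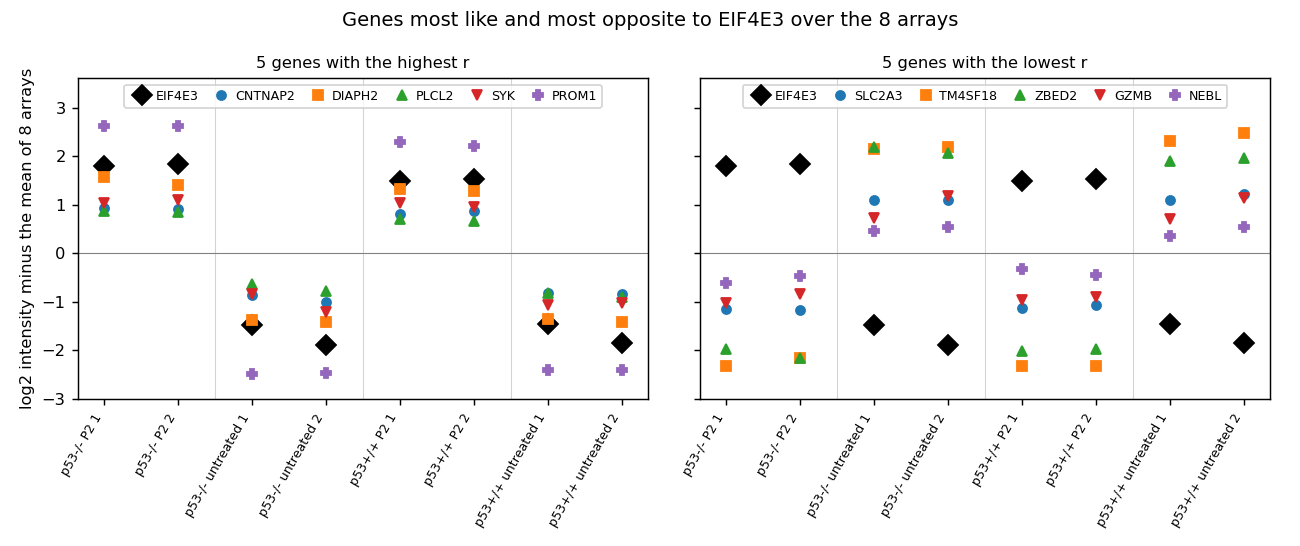
Log2 intensity minus the mean of the 8 arrays (vertical axis) on each array (horizontal axis) for EIF4E3 (black diamonds) and the 5 genes with the highest (left) and lowest (right) Pearson r to it. On the left all points lie above 0 on treated and below 0 on untreated arrays, and on the right the 5 other genes lie on the opposite side.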

How the data were processed

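Biotin-labelled cRNA made from HCT116 RNA was hybridized to the arrays, per the labels' protocols. The submitters' processing notes name GenomeStudio, with version and role not given in the sources used here. The deposited raw table gives, for each array, every probe's unscaled intensity, and beside it the deposited detection p-value. The authors' deposited log2 values matched quantile normalization of those intensities on the log2 scale to within 5e-09. The targeted gene is not analysed here.

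Intensities were background-corrected with normexp in limma 3.58.1 (R 4.3.3), offset 16, its background parameters taken from detection p-values, then log2-transformed and quantile-normalized. The 14574 of 24526 probes detected (p under 0.05) on 2 arrays or more were fitted in limma with 1 mean per group over all 8 arrays (4 residual and 5.15 prior degrees of freedom). Two-sided moderated p-values had Benjamini-Hochberg adjustment in each contrast over every tested probe, with a threshold of 0.05. The number of arrays limits the precision. Symbols came from the platform annotation, updated through gene IDs for 21813 of 21834 probes with 1 symbol.

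Named genes were all members, the 5 genes most and least like EIF4E3, and the neighbours of EIF4E3 that were read. Up to 4 called genes of each list with the largest change in each genotype were also named. The members and lists were chosen with earlier results of these data known. Alternatives changed the background correction, offset, normalization, filter, moderation, groups fitted, replicate block and each array in turn, left out of the fit alone. The authors' log2 values were a further alternative and equal the setting without background correction. Tallies of alternatives therefore count that setting under both names. The fit was tested on simulated data, and matplotlib 3.10.9 (Python 3.11.15) drew the plots.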

Additional observations from a re-analysis of the deposited data

How the results depend on the processing

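EIF4E3 could not be fitted with the stricter filter (detection p under 0.01 on all 8 arrays), and in the other settings its P2 difference ranged from 2.60 to 3.72 log2 in p53-/- and from 2.31 to 3.36 in p53+/+ cells. The number of called probes of members other than EIF4E3 in p53-/- cells, 1 of 11, was 2 without background correction, with the authors' log2 values, with the stricter filter and with a trended, robust moderation of the variance, and 0 with only these groups fitted. Leaving out each array gave 0 to 4 in p53-/- cells. It was 4 without p53-/- untreated replicate 2, where both EIF4G1 probes and EIF4G2 ILMN_2279635 also passed, and 0 without p53-/- untreated replicate 1. In p53+/+ cells the count was 1 with only these groups fitted and 0 without any 1 array. For the difference between the P2 effects, leaving out an array gave 0 to 1 called probes, where the 1 was EIF4G1 ILMN_2370772 without p53-/- untreated replicate 2 (-1.13 log2, limma adjusted p = 0.0204). Between untreated genotypes the count was 1 with median scaling and 0 to 3 without 1 array, with the 3 again without p53-/- untreated replicate 2. Between treated genotypes it was 0 in every alternative run. With 1 array left, a group is assumed to vary like the others, and counts from such fits have no share over all tested probes beside them. EIF4EBP2 in p53-/- cells kept its sign in every alternative run, while EIF4G2 ILMN_2279635 did not: its values ran from -0.028 to 1.18 log2 for P2 in p53-/- cells and from -0.082 to 1.13 between untreated genotypes.

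With the replicate number as a block, the count in p53-/- cells was 1 (EIF4EBP2, adjusted p = 0.0432), and the counts of the other comparisons were 0. Same-numbered arrays deviated together with r between -0.19 and 0.20, so the numbers were not taken to pair the arrays. Alternatives for the translation lists were added after the data were seen, and their counts without 1 array have no share over all tested probes beside them. Without P2-treated p53-/- replicate 1 the called probes in p53-/- cells were 0 for cap-binding partners, 1 for signalling, 2 for eIF2, 1 for eIF3, 0 for scanning and joining, and 0 for eIF4E-sensitive messages. Without P2-treated p53-/- replicate 2 these counts were 1, 3, 2, 1, 0 and 2 in the same order. In p53-/- cells without p53-/- untreated replicate 2, scanning and joining factors had 4 and elongation factors 1. In p53+/+ cells the partners had 6 without either untreated p53-/- array, and 1 without untreated p53+/+ replicate 2 or without either treated p53+/+ array. The eIF4E-sensitive messages had 3 in p53+/+ cells without either untreated p53-/- array, and 0 without untreated p53+/+ replicate 1 or treated p53+/+ replicate 2. The eIF2 list had 2 in p53+/+ cells without either untreated p53-/- array. The untreated level of EIF4E3, just above background, limits how well its fold is known.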
